A study of Mus musculus with 6 samples.

Results

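The BCL2 family was followed in colonic crypts as the 10 genes *Bcl2*, *Bcl2l1*, *Mcl1*, *Bax*, *Bak1*, *Bbc3*, *Pmaip1*, *Bid*, *Bad* and *Bcl2l11*, chosen by symbol from the 18049 genes of the deposited table. All 10 were present, and all 10 passed the filter on low values used for testing. Total RNA was sequenced from crypts of 3 control and 3 GSK503-treated mice, taking each numbered replicate as 1 mouse, since the labels name no pooling. Both groups carried the same alleles, a loxP-flanked gene removed by *Villin-Cre* and a humanized *TgfβRII* knockin with a poly(A) repeat, on a C57BL/6J background and a Western-style diet. Villin-Cre acts in the gut epithelium, so other cells in a crypt preparation keep the loxP-flanked gene. Treated mice received GSK503, an inhibitor of the methyltransferase EZH2, at 200 μg/kg by repeated tail vein injection, whereas control mice received captisol in PBS. The age of the mice at collection is not given in the sources used here.

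Proteins of the BCL2 family decide whether the outer mitochondrial membrane stays closed. BCL2, BCL-XL (the product of *Bcl2l1*) and MCL1 hold it closed, BAX and BAK form the pores that release cytochrome c, and the BH3-only proteins PUMA (*Bbc3*), NOXA (*Pmaip1*), BID, BAD and BIM (*Bcl2l11*) bind the guardians or switch on the pore formers. In the intestine, MCL1 and BCL-XL are known to be needed for epithelial survival, and PUMA is known for crypt cell death after DNA damage, a p53 response. EZH2 places H3K27me3, a mark of silenced genes that is found mostly at CpG-rich promoters.

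Promoter sequence was read from GRCm39, the build of the deposited values, as the 300 bases from 250 before to 50 after the start of each gene's canonical GENCODE transcript. Of the 10 promoters, 8 were CpG-rich (CpG observed to expected above 0.6 and GC content above 50%), against 39.2% of 21757 protein-coding promoters of the same length. The exceptions were *Bak1*, with 3 CpG, and *Bbc3*, with 5. The ratios of *Bcl2l1* (0.641), *Bad* (0.662) and *Bid* (0.668) lay close to the cut of 0.6. The background took in protein-coding genes whether or not they were expressed in crypts, whereas all 10 members passed the filter on low values. The shares, here and for the motifs below, are therefore not of like sets of genes. The promoters of *Bad* (chr19:6919682-6919981, plus strand) and *Bcl2l11* (chr2:127967708-127968007, plus strand) are shown 5′ to 3′ because these were the only members whose values did not overlap between the groups, and capitals mark each CpG.
Bad: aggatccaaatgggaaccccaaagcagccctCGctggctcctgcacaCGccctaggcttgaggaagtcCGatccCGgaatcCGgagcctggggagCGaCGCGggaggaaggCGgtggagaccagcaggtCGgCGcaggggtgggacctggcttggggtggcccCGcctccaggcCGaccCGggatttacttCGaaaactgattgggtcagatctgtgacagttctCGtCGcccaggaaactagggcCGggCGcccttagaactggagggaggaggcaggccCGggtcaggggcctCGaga
Bcl2l11: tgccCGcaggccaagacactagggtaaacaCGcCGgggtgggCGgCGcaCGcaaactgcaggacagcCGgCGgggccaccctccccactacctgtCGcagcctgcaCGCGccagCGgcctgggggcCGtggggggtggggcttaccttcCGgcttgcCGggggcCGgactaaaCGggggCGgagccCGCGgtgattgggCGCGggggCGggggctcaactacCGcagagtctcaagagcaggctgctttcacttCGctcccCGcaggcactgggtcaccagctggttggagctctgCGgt
The *Bad* window held 21 CpG and the *Bcl2l11* window 27. On both strands, the FOXO core GTAAACA was found in the windows of *Bcl2l11* and *Bak1*, and 3.15% of all promoters held it. The p53 decamer, the shorter unit of a p53 response element, was found in the windows of *Bax*, *Bbc3* and *Pmaip1*, against 7.89% of all promoters. The E-box CACGTG occurred in *Bax* alone among the members (7.82% of all promoters) and the cyclic AMP response element TGACGTCA in *Pmaip1* alone (2.45%), whereas TATAAA was in none of the 10 (13.2%). These matches are letters in a window and do not show that a factor was bound.

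Depth was similar in all libraries, with between 108162848 and 135085027 estimated counts each. The deposited values are estimated CPM (counts divided by library size), scaled between libraries by TMM (a trimmed mean that sets most genes equal). *Xist*, transcribed from the inactive X chromosome, was 0.419 to 0.936 in controls but 825 to 1236 with GSK503, and the Y-linked *Ddx3y* was at or near 0 in all treated mice, so sex and treatment cannot be told apart. All 10 family members are autosomal. The summed level of 8 epithelial markers was between 10034 and 11054 in control mice and between 10637 and 12355 in treated mice, far above 9 T cell markers (17.7 to 25.1 and 15.8 to 20.6). All 7 goblet cell markers were higher in treated mice, 4 of them with a limma adjusted p below 0.05, and their sum was 10751 to 19098 against 33193 to 51488. The 9 B cell markers summed to 4.59 to 36.9 in control mice and to 1.62 to 4.08 in treated mice, and 3 of the 9 were at 0 in at least 1 mouse. All 10 immediate early genes were lower in treated mice, 4 of them called, with sums of 1463 to 1663 against 1104 to 1283. GSK503-treated mouse 3 stood apart in its stromal markers, with summed smooth muscle markers of 213 against 74.7 and 81.8 in the other treated mice and 99.3 to 181 in the control mice. It was also highest for the sums of 8 macrophage (36.2, against 6.82 to 25.8 elsewhere), 6 fibroblast (113, against 25.1 to 77.1) and 6 endothelial markers (14.4, against 4.62 to 10.4).

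The first comparison asked whether GSK503 changed the transcripts that set the threshold for apoptosis. None of the 10 members passed an adjusted p of 0.05 in limma's test across all 16670 genes tested, where 0.642% of all genes were called (0.498% higher and 0.144% lower, that is 83 and 24 genes, or 83 higher and 178 lower when libraries were scaled by size alone). One member, *Bad*, had an unadjusted p below 0.05, against 13.3% of all genes, and limma-voom on recovered counts likewise called 0 of 10 after adjustment and 1 before it. With library size alone, that member was *Bcl2l11* (limma unadjusted p = 0.024) and not *Bad* (limma unadjusted p = 0.056). Without limma's intensity trend both lay below 0.05 (limma unadjusted p = 0.037 for *Bad* and 0.038 for *Bcl2l11*). The groups did not overlap for 2 of the 10, *Bad* above and *Bcl2l11* below, against 19.1% of all genes tested. The median log2FC (the log2 fold change of treated over control mice) of the 10 was 0.05 and that of all genes was -0.01. Scaling by library size alone shifted the centre of all genes to -0.12, and 7 of the 8 positive members then had a negative log2FC, the exception being *Bad*, so log2FC values and the counts of positive and negative log2FC below are relative to the deposited scaling. For all 10 members the unadjusted 95% interval of the difference lay inside a 2-fold change in either direction, as it did for 70.8% of all genes tested. It lay inside a 1.5-fold change for 8 of the 10, the exceptions being *Bad* and *Bcl2l11*, and for 54.7% of all genes.

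**Figure D1:**
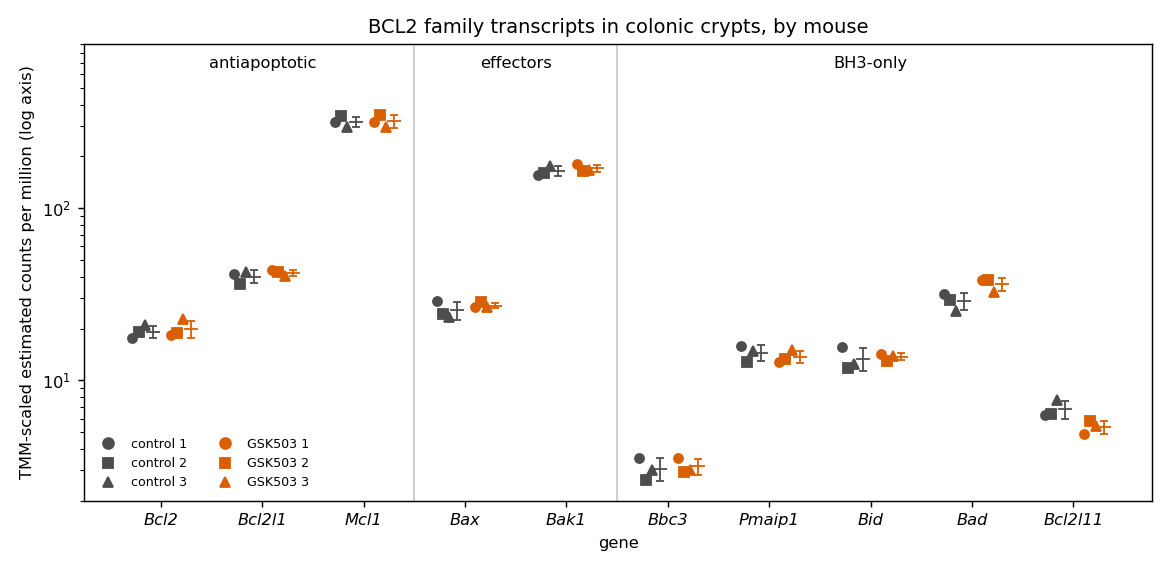
Level of each BCL2 family gene in each mouse, in TMM-scaled estimated CPM on a log axis, with circles, squares and triangles for mice 1, 2 and 3 and bars for the mean ± SD (n = 3) of each group. The groups overlap for 8 genes; the treated mice lie above the control mice for *Bad* (not with library size alone as the scaling) and below them for *Bcl2l11*.

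Because genes differ in length, levels were compared between members only after division by the length of the canonical transcript in kilobases. *Mcl1*, the short-lived guardian, was the highest member, at 91.2 ± 6.35 CPM per kilobase in controls and 91.9 ± 7.78 with GSK503 (SD, n = 3 each). *Bak1* followed at 68.8 ± 4.64 and 71.4 ± 3.71, with no mouse overlapping *Mcl1*. *Bad* (range over the 6 mice 21.3 to 32.2 per kilobase) and *Bax* (24.0 to 29.7) could not be separated from each other. *Bcl2l1* came next with 11.1 to 13.5, and then *Bid* (5.40 to 7.11) and *Pmaip1* (4.71 to 5.80), which overlapped. *Bcl2* had 2.45 to 3.12 per kilobase, so its level was below that of *Bcl2l1* and *Mcl1* in every mouse. *Bcl2l11* (0.968 to 1.52) and *Bbc3* (0.987 to 1.32) were lowest and overlapped. *Mcl1* made up 35.4% to 40.6% and *Bak1* 26.6% to 31.6% of the summed level of the 10 genes per kilobase. The length used matters to the order. Per kilobase of all annotated exons joined, *Mcl1*, *Bak1* and *Bax* led, *Bad* moved from the third to the fifth place (5.64 to 8.53) and *Bid* from the sixth to the eighth (1.21 to 1.60). By that length *Bad* overlapped *Bcl2l1* above it (7.03 to 8.55) and *Pmaip1* below it (4.71 to 5.80), so its place was not resolved. *Bbc3* and *Bcl2l11*, again lowest, changed places and still overlapped.

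**Figure D2:**
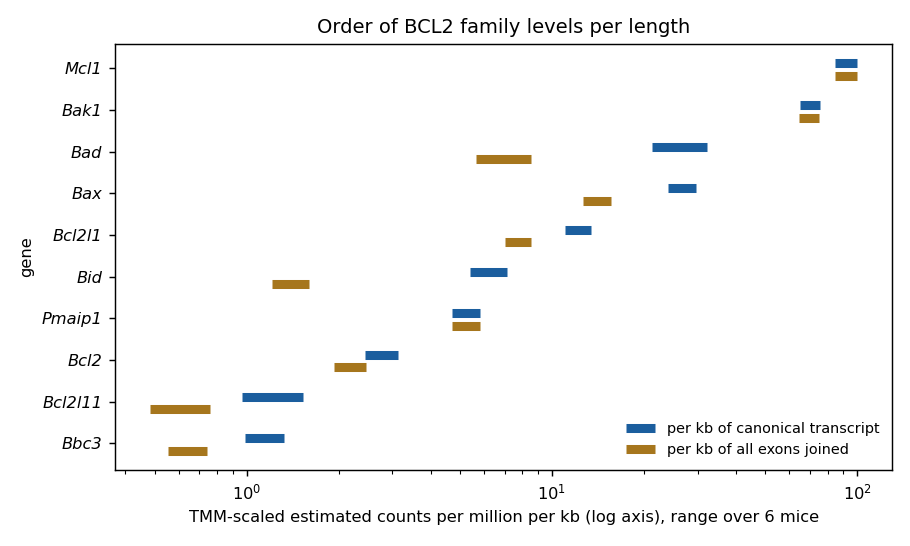
Range over the 6 mice of each gene's level per kilobase, in TMM-scaled estimated CPM per kilobase on a log axis, by canonical transcript length and by the length of all exons joined. *Mcl1* and *Bak1* lie above the other members by both lengths, whereas *Bad* and *Bid* lie lower when all exons are counted.

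Among the guardians, *Mcl1* (ENSMUSG00000038612, chr3:95566026-95570487, plus strand, 3 exons) had values of 315, 342 and 298 CPM in control mice 1, 2 and 3, against 319, 349 and 295 in mice 1, 2 and 3 given GSK503. Both groups covered nearly the same range, with a log2FC of 0.01 (95% interval -0.19 to 0.21, limma adjusted p = 0.977). *Bcl2l1* (ENSMUSG00000007659, chr2:152622582-152673655, minus strand) had 41.4, 36.1 and 42.7 in controls against 43.9, 42.6 and 40.4 with GSK503. Its log2FC was 0.08 (95% interval -0.12 to 0.28, limma adjusted p = 0.749). *Bcl2* (ENSMUSG00000057329, chr1:106465908-106642060, minus strand), the founding member, which lymphocytes use as well as epithelium, had 17.7, 19.1 and 20.9 in controls against 18.3, 18.8 and 22.6 with GSK503. The highest *Bcl2* value was that of treated mouse 3, and the log2FC was 0.05 (95% interval -0.21 to 0.31, limma adjusted p = 0.906). In that mouse the T cell markers summed to 20.6 (15.8 to 25.1 over all mice) and the B cell markers to 4.04 (1.62 to 36.9 over all mice). Its sums of smooth muscle (213), macrophage (36.2), fibroblast (113) and endothelial markers (14.4) were the highest of all mice. In bulk crypts, fewer cells of a type and less RNA per cell cannot be told apart, and the part of cell types in the *Bcl2* values was not tested. With treated mouse 3 left out, the log2FC of *Bcl2* was -0.05. Exons of *Bcl2* and *Bcl2l1* share 558 and 476 bases with noncoding RNAs on the other strand.

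The values of both pore formers overlapped between the groups. *Bak1* (ENSMUSG00000057789, chr17:27238784-27247983, minus strand) had 155, 161 and 177 in controls against 181, 165 and 166 with GSK503, a log2FC of 0.05 (95% interval -0.12 to 0.23, limma adjusted p = 0.816). *Bax* (ENSMUSG00000003873, chr7:45111015-45116325, minus strand), a p53 target, had 29.0, 24.3 and 23.4 in controls against 26.5, 28.4 and 26.7 with GSK503. Control mouse 1 was the highest of all 6 for *Bax* and control mouse 3 the lowest, so the treated mice lay within the control range. The log2FC of *Bax* was 0.10 (95% interval -0.14 to 0.33, limma adjusted p = 0.741). Exons of *Bax* share 192 bases with a protein-coding gene on the same strand, not analysed here. Those of *Bak1* share 437 and 177 bases with protein-coding genes on the other strand.

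The BH3-only genes included both members without overlap. *Bad* (ENSMUSG00000024959, chr19:6918902-6929280, plus strand), whose product binds BCL-XL and is held inactive by phosphorylation downstream of growth factors, had 31.8, 29.3 and 25.3 in controls against 38.3, 38.2 and 32.7 with GSK503. The groups did not overlap, with treated mice higher, although treated mouse 3 exceeded control mouse 1 by little. The means were 28.8 ± 3.29 and 36.4 ± 3.18 (SD, n = 3 each). The log2FC was 0.34 (standard error 0.11, 95% interval 0.09 to 0.59, limma adjusted p = 0.218). An exact two-sided permutation test of 3 mice against 3 cannot go below p = 0.1. Scaled by library size alone, the groups overlapped for *Bad*, at a log2FC of 0.23 (limma adjusted p = 0.256). Without treated mouse 3 it was 0.41 (limma adjusted p = 0.122), and over all 15 alternatives the adjusted p lay between 0.122 and 0.597. Exons of *Bad* share 914 bases with *Gpr137* and 1130 with *Gm56656*, a noncoding RNA not analysed here, both on the other strand. *Gpr137* differed by less than the spread between mice, with a log2FC of 0.03 (limma adjusted p = 0.917). Sums of goblet cell markers were likewise higher in every treated mouse, and their part in the *Bad* values was not tested.

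*Bcl2l11* (ENSMUSG00000027381, chr2:127967958-128004476, plus strand) encodes BIM, a direct activator of BAX and BAK and the main killer of unneeded lymphocytes. It had 6.29, 6.37 and 7.69 in controls against 4.88, 5.81 and 5.44 with GSK503. All treated mice lay below all control mice, and control mouse 3 was the highest. The means were 6.78 ± 0.786 and 5.38 ± 0.466 (SD, n = 3 each). The log2FC was -0.33 (standard error 0.16, 95% interval -0.69 to 0.04, limma adjusted p = 0.433). Without control mouse 3 the log2FC was -0.23 (limma adjusted p = 0.676), without treated mouse 3 it was -0.34 (limma adjusted p = 0.416), and with library size alone it was -0.44 (limma adjusted p = 0.177). Over all 15 alternatives the adjusted p lay between 0.177 and 0.676. Exons of *Bcl2l11* share 69 bases with a protein-coding gene on the same strand and 126 with a noncoding RNA on the other strand, neither analysed here. Strand cannot tell apart reads of a same-strand stretch. The sum of B cell markers was also lower in every treated mouse. Among control mice it was 4.59 in mouse 3 and 36.9 in mouse 2, and its part in the *Bcl2l11* values was not tested.

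The other BH3-only genes overlapped between the groups. *Bid* (ENSMUSG00000004446, chr6:120862525-120894171, minus strand), which is activated by caspase-8 cleavage, had 15.7, 11.9 and 12.5 in controls against 14.3, 13.0 and 13.9 with GSK503, a log2FC of 0.05 (95% interval -0.25 to 0.34, limma adjusted p = 0.917). Its exons share 3059 bases with *Bcl2l13* on the other strand, whose treated mice lay below its control mice (log2FC -0.12, limma adjusted p = 0.535). Without knowledge of the strand setting used in counting, reads of this stretch cannot be assigned to 1 of the genes. *Pmaip1* (ENSMUSG00000024521, chromosome 18) had 15.9, 12.9 and 14.7 in controls against 12.9, 13.3 and 15.1 with GSK503, a log2FC of -0.08 (95% interval -0.35 to 0.20, limma adjusted p = 0.842). *Bbc3* (ENSMUSG00000002083, chr7:16042318-16052130, plus strand) had few counts, with 3.55, 2.65 and 3.02 in controls against 3.54, 2.94 and 3.02 with GSK503. Its interval was wide, -0.42 to 0.52 around a log2FC of 0.05 (limma adjusted p = 0.95), on between 293 and 466 estimated counts per library. By comparison, *Mcl1* rested on between 35419 and 43803. Within groups, the SD on the log2 scale was between 0.0857 and 0.175 for the 10 members, with a median of 0.139, and the median of all genes tested was 0.183.

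**Figure D3:**
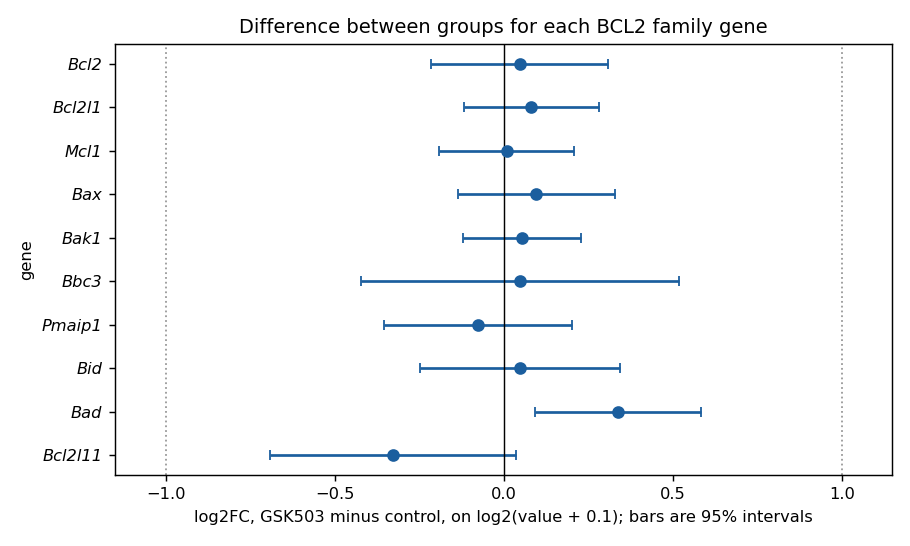
Log2FC of each BCL2 family gene in GSK503-treated against control mice (points) with the unadjusted 95% interval from limma (bars), and dotted lines at a 2-fold change. All 10 intervals lie inside the dotted lines, and that of *Bad*, from 0.09 to 0.59, is the only one that leaves out 0.

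Ratios between pro- and antiapoptotic members were taken within each mouse, where the scaling between libraries nearly cancels. They are given as log2 values and were not tested. The *Bax* to *Bcl2* ratio, a common index of readiness for apoptosis, was 0.70, 0.34 and 0.17 in controls against 0.53, 0.59 and 0.24 with GSK503, and the groups overlapped. *Bax* to *Bcl2l1* (means -0.65 and -0.63) and *Bak1* to *Mcl1* (means -0.95 and -0.91) overlapped as well. *Bad* to *Bcl2l1* was -0.38, -0.30 and -0.75 in controls against -0.20, -0.16 and -0.30 with GSK503, with control mouse 2 and treated mouse 3 nearly equal. *Bcl2l11* to *Bcl2l1* was lower in every treated mouse (-3.14, -2.85 and -2.87) than in every control mouse (-2.70, -2.48 and -2.46). *Bcl2l11* to *Mcl1* also did not overlap, but treated mouse 3 (-5.73) and control mouse 2 (-5.72) were nearly equal. Both of these ratios use the *Bcl2l11* values above.

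**Figure D4:**
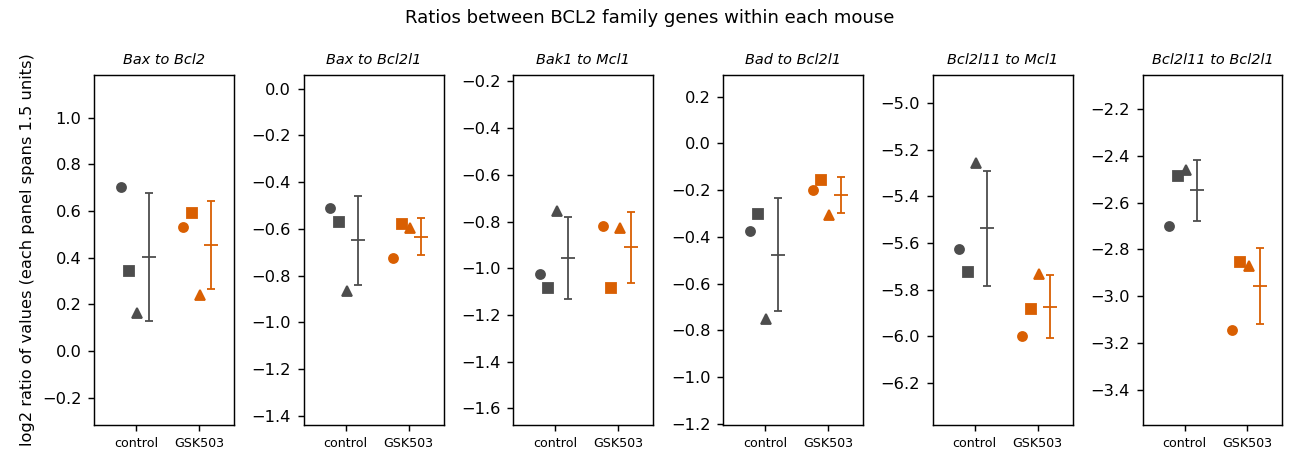
Log2 ratio between pairs of BCL2 family genes within each mouse; circles, squares and triangles are mice 1, 2 and 3, bars are the mean ± SD (n = 3), and each panel spans 1.5 log2 units around its own centre. The ratios of *Bcl2l11* to *Mcl1* and to *Bcl2l1* are lower in every treated mouse, and the other 4 overlap between the groups.

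A second question was how the members compare with the rest of the cell death pathway. Of 76 other genes listed, 75 were in the table, *Hrk* was not analysed here, and 74 were tested. None passed an adjusted p of 0.05 with limma or limma-voom, against 0.642% of all genes. An unadjusted p below 0.05 was found for 6 higher and 5 lower genes, as for 7.06% and 6.27% of all genes, and limma-voom gave 11 in all as well. The groups did not overlap for 19 of the 74, 8 with the treated mice above and 11 below, against 9.84% and 9.22% of all genes. The median log2FC of the 74 was 0.00.

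Among 13 tested relatives of the family, 6 had a positive and 7 a negative log2FC, with a median of -0.05. *Bnip3*, a BH3-containing protein of mitophagy and hypoxia, had 4.02, 3.54 and 3.51 in controls against 5.21, 4.68 and 5.58 with GSK503, with no overlap and a log2FC of 0.47 (limma adjusted p = 0.288). *Bcl2a1a*, *Bcl2a1b* and *Bcl2a1d*, blood cell guardians, were at or below 1.3 CPM in all libraries, and as near-identical copies their reads could have been divided among them. *Bcl2l10* did not pass the filter. Of 9 mitochondrial partners, 6 had a positive log2FC (median 0.11), none with an unadjusted p below 0.05, and *Vdac1* and *Vdac2*, outer membrane channels, did not overlap between the groups.

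Of 10 genes listed under apoptosome and caspases, 3 had a positive log2FC and 7 a negative one (median -0.07). Not all of them act after the pore, since the list holds *Casp8*, whose product cleaves BID, and *Bag1*. *Apaf1*, the scaffold of the apoptosome, had 56.2, 57.0 and 69.8 in controls against 54.1, 50.0 and 49.3 with GSK503, a log2FC of -0.25 (limma adjusted p = 0.316). Like *Bcl2l11*, *Apaf1* was highest in control mouse 3. *Bag1*, a BCL2-binding cochaperone, had 217, 207 and 173 in controls against 248, 254 and 250 with GSK503, with a log2FC of 0.34 (limma adjusted p = 0.142). Of 6 caspase inhibitors, 4 had a negative log2FC (median -0.17). *Birc2*, a ubiquitin ligase of TNF signaling, had a log2FC of -0.18 (limma adjusted p = 0.363) without overlap.

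In the death receptor pathway, 4 of 9 genes had a positive and 5 a negative log2FC (median 0.00). *Tnfsf10*, which encodes the death ligand TRAIL, had 49.5, 60.6 and 58.9 in controls against 32.9, 28.3 and 43.9 with GSK503. All treated mice were lower, with a log2FC of -0.70 (standard error 0.15, 95% interval -1.04 to -0.36, limma adjusted p = 0.0784), and no other gene of the 74 had a smaller adjusted p. Among 15 alternatives the adjusted p of *Tnfsf10* ranged from 0.015 to 0.298. It passed 0.05 with library size alone and without treated mouse 3. The TRAIL receptor *Tnfrsf10b* had a log2FC of 0.13 (95% interval -0.30 to 0.56) and overlapped.

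Of 14 p53 pathway genes, 8 had a positive and 6 a negative log2FC (median 0.07). *Mdm2*, which is induced by p53 and degrades it, had 43.7, 41.0 and 40.4 in controls against 48.8, 47.2 and 50.3 with GSK503, a log2FC of 0.23 (limma adjusted p = 0.232). *Ccng1*, another p53 target, had a log2FC of 0.16 (limma adjusted p = 0.351), also without overlap. Over the 15 alternatives the lowest log2FC was 0.11 for *Mdm2* and 0.05 for *Ccng1*. The p53 targets within the family, *Bax*, *Bbc3* and *Pmaip1*, overlapped between the groups as given above, and so did *Cdkn1a*, with a log2FC of 0.22 (limma adjusted p = 0.517).

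Of 13 upstream regulators, 7 had a positive and 6 a negative log2FC (median 0.00). *Ddit3*, the stress factor CHOP that can induce BIM, had 8.91, 7.51 and 6.93 in controls against 9.52, 13.9 and 12.5 with GSK503, a log2FC of 0.60 (limma adjusted p = 0.162). Neither *Ddit3* nor *Bcl2l11* was called, and a link between them was not tested. *Huwe1*, a ubiquitin ligase for MCL1, had 469, 468 and 573 in controls against 428, 385 and 383 with GSK503, a log2FC of -0.33 (limma adjusted p = 0.186). *Usp9x*, the deubiquitinase that stabilizes MCL1, had a log2FC of -0.17 (limma adjusted p = 0.37) without overlap. Both lie on the X chromosome, and *Huwe1* too was highest in control mouse 3. *Foxo3*, which can activate *Bcl2l11*, overlapped, with a log2FC of 0.02 (95% interval -0.16 to 0.20).

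**Figure D5:**
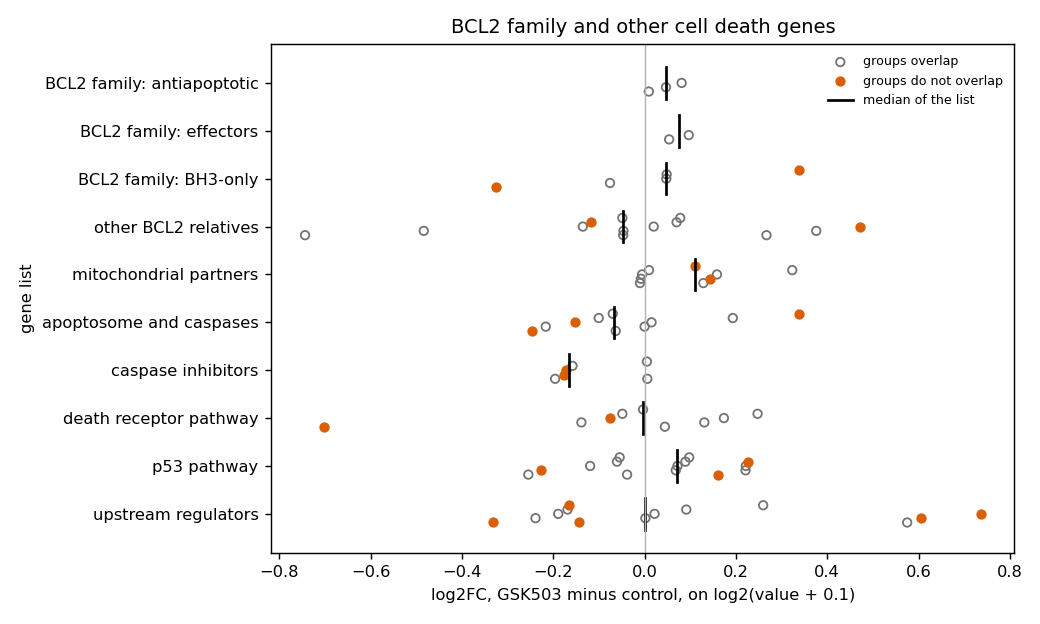
Log2FC of each tested gene of the BCL2 family and of 7 other lists of cell death genes, GSK503-treated minus control mice, with filled points where the groups do not overlap and a black line at the median of each list. Medians of the 7 other lists lie between -0.17 for caspase inhibitors and 0.11 for mitochondrial partners, and *Tnfsf10*, at -0.70, is the lowest filled point.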

How the data were processed

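Total RNA-Seq values of crypts from 3 control and 3 GSK503-treated mice were analysed, with groups and replicate numbers from the sample labels. Per the study's methods, STAR alignment to GRCm39 was followed by RSEM, whose gene-level estimates the authors normalised by TMM in edgeR. The deposited signal was read as an estimated CPM of the scaled library from its steps and column sums, since no label states its unit. The worth of 1 count was recovered as the step of which between 88.5% and 90.4% of low values (under 20 steps) were whole multiples within 0.02 steps; the counts behind the rest need not be whole. Totals and intervals cover counting error or spread between mice only. As the unit is scaled, limma 3.58.1 (R 4.3.3) was fitted to log2(value + 0.1) for all genes with at least 0.1 in at least 3 mice, with an intensity trend and Benjamini-Hochberg adjustment over all 16670 genes; 1379 were left out. Log2FC on this scale understates changes of low genes. The test was checked on simulated data. Members, gene lists and tests were chosen with earlier results of these data known. All 10 members are named, as are other pathway genes with an adjusted p below 0.05 or an unadjusted p below 0.05 without overlap; *Bcl2a1a*, *Bcl2a1b*, *Bcl2a1d*, *Bcl2l10*, *Hrk*, *Vdac1*, *Vdac2*, *Tnfrsf10b*, *Cdkn1a*, *Foxo3*, *Bcl2l13*, *Gm56656* and *Gpr137* were added after their values were seen. Alternatives were other scalings, filters and pseudocounts, no trend, limma-voom on recovered counts, a replicate block and leaving out each mouse. Positions and promoters came from GENCODE vM39, to which 95.4% of symbols and all members matched. Counting strand, and a gene filter before deposit, are not given in the sources used here. Some items of the genotype and gene lists are not reported here. Python 3.11.15, pandas 2.3.3 and matplotlib 3.10.9 were used.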

Additional observations from a re-analysis of the deposited data

How the results depend on the processing

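None of the 10 members passed an adjusted p of 0.05 under any of the 15 alternatives. Changing the filter, dropping the intensity trend and adding the replicate block leave a member's log2FC unchanged, so its sign could not reverse there. Of 90 member results without a mouse left out, 83, including these, kept their sign. The other 7 reversed under library size alone, which moved the median of all genes to -0.12: the log2FC became -0.067 for *Bcl2*, -0.033 for *Bcl2l1*, -0.11 for *Mcl1*, -0.017 for *Bax*, -0.061 for *Bak1*, -0.063 for *Bbc3* and -0.065 for *Bid*, so no direction is given for these genes. With each mouse left out in turn, 7 of 60 reversed, and the log2FC ranged from -0.047 to 0.11 for *Bcl2*, from -0.053 to 0.069 for *Mcl1*, from -0.051 to 0.15 for *Bbc3* and from -0.029 to 0.17 for *Bid*. It ranged from 0.25 to 0.41 for *Bad* and from -0.38 to -0.23 for *Bcl2l11*. The count of other pathway genes called was 1 (*Tnfsf10*) with library size alone, and between 0 and 1 with each mouse left out. Over all genes, 107 were called. The count was 261 with library size alone, of which 178 were lower, and 16 without the intensity trend, 9 higher and 7 lower. With each mouse left out it was between 29 and 216 (20 to 116 higher, 7 to 100 lower). It was 29 without treated mouse 2, 216 without treated mouse 3, 44 without control mouse 2 (7 lower), 49 without control mouse 3, 63 without treated mouse 1 and 107 without control mouse 1 (15 lower). With a replicate block the count was 33, 23 higher and 10 lower, and 0 of 10 members were called. The labels name no pairing of same-numbered mice. Their deviations from the group means correlated at 0.032, -0.126 and -0.119 across genes. No control mouse correlated best with the treated mouse of its number. Deviations of 3 mice from their own mean are tied to each other, so these correlations cannot decide whether mice were paired. The cause of these shifts in counts was not tested. *Bbc3* had the fewest counts among members, and 3 mice per group leave changes smaller than the printed intervals undetected.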
